A study of Saccharomyces cerevisiae with 24 samples.

Results

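The genes described here encode enzymes that build amino acids in the budding yeast Saccharomyces cerevisiae. They are 43 genes taken by name from the HIS, LEU, ILV, BAT, ARG, CPA, LYS, TRP, ARO, HOM and THR families, with MET6, out of 6696 genes in the count files and 6663 in the files of normalised reads. LEU2, HIS3 and TRP1 were left out of the set because they serve as genetic markers in these strains. By pathway the set holds 7 genes for arginine, 7 for lysine, 6 of the aspartate family, 5 for histidine, 5 for isoleucine and valine, 4 for tryptophan, 4 of the shikimate pathway, 3 for leucine and 2 branched-chain transaminases. The enzymes of 12 members are mitochondrial and those of the other 31 are cytosolic or nuclear.

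The study profiled ribosome footprints, the mRNA pieces that a ribosome shields from RNase I, in 24 libraries from 12 groups of 2. Each group combined a strain, a fraction and a library kind. The fractions were the membrane fraction solubilised with 1% Triton X-100 and the cytosolic fraction. The kinds were ribosomes pulled down with tagged Hel2 (IP) and the input to that pull-down. Hel2 is the E3 ubiquitin ligase that marks a ribosome when another has run into it from behind.

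All strains were MATa ade2 his3 leu2 trp1 ura3 can1 with HEL2-FTP::natNT2, so the controls carry the tagged Hel2 as well. The strain labelled GIT1p also had srp72::HISMX6 and expressed SRP72-V5 under the GIT1 promoter on the plasmid pRS415. The strain labelled SRP72p had the same deletion and the same tagged gene under the SRP72 promoter. The third strain, HEL2-FTP, had neither change. Srp72 belongs to the signal recognition particle, which brings ribosomes making secretory proteins to the endoplasmic reticulum. Cultures grew in YPD, a rich medium, at 30 °C to an OD600 of 0.5 to 0.6.

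Yeast can make every amino acid it needs, and the transcription factor Gcn4 raises most of these pathways when amino acids run short. The early steps of leucine, isoleucine, valine and ornithine synthesis, and several steps of the lysine pathway, take place in the mitochondrial matrix, to which the enzymes are carried by targeting signals near their N termini. Leu3 is a second regulator: bound by the product of Leu4 and Leu9, it activates LEU1, BAT1, ILV2 and other branched-chain genes. In rich medium the cells also take amino acids up from outside.

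The inputs and IPs of the GIT1p and SRP72p strains held 2015928 to 13093023 counts per library. The HEL2-FTP files give RPM, reads scaled to a library total of 1000000, and the smallest step in them puts their depth at an estimated 22.15 to 38.86 reads per RPM unit. The members took 1.09 to 1.61% of the counts and 1.66 to 1.83% of the RPM. Marker messages differed between the GIT1p and SRP72p inputs, although the labels give both strains the same markers. LEU2, the marker on pRS415, stood at 1671 to 2030 CPM, counts on the same scale, in the GIT1p inputs and at 33.9 to 127.4 CPM in the SRP72p inputs. HIS3 stood at 16.6 to 28.7 CPM in the GIT1p inputs and at 391 to 572 CPM in the SRP72p inputs, and TRP1 at 1.57 to 6.78 CPM in the GIT1p inputs and 66.8 to 83.6 CPM in the SRP72p inputs. SRP72 itself stood at 326 to 382 CPM in the GIT1p inputs and at 120 to 145 CPM in the SRP72p inputs. The strains are therefore called by their labels, and their differences are differences between libraries so labelled. The SRP72p membrane inputs also differed from each other, with 0.815% of counts from mitochondrially encoded genes in replicate 1 and 0.0402% in replicate 2. In the GIT1p membrane inputs the same share was 0.00363% and 0.125%.

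A list of 12 marker genes of membrane and secretory proteins, such as SEC61 and PMA1, summed to 12930 to 13510 RPM in the HEL2-FTP membrane inputs and to 1052 to 1233 RPM in the cytosolic inputs. A list of 12 cytosolic markers, most of them glycolytic, summed to 164800 to 164900 RPM in the membrane inputs, against 172900 to 173400 RPM in the cytosolic inputs. No marker of either list was at 0 in any library. The cytosolic markers took nearly as large a share of the HEL2-FTP membrane inputs as of the cytosolic inputs. All levels are relative to their own library, so differences between fractions do not give how ribosomes divide between them.

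Per kilobase of coding sequence the members were well translated. Their median level in the HEL2-FTP cytosolic inputs was 302.2 RPM per kb, against 18.8 RPM per kb over the 5532 genes tested, and their median length was 440 amino acids against 417. HOM2, aspartate semialdehyde dehydrogenase, was the highest at 1028 ± 10.5 RPM per kb (SD, n = 2). ILV5, acetohydroxyacid reductoisomerase, followed at 824.3 ± 16.0, and BAT1, the mitochondrial branched-chain transaminase, at 770.0 ± 6.37 RPM per kb. ARO4 stood at 736.4 ± 34.5 RPM per kb, less than its own spread below BAT1, and then came a wide step down to ILV6 at 505.9 ± 3.40. The 5 lowest were ILV1 at 31.7, LYS4 at 29.6, ARG8 at 22.1, then LEU9, and ARG5,6 at 16.0 RPM per kb, all of them mitochondrial enzymes. A footprint level combines the amount of a message with the ribosomes on it, and in a bulk culture fewer cells using a gene cannot be told apart from less use per cell.

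Ribosomes on 6 members were higher in the membrane fraction than in the cytosol in all 3 strains, and all 6 encode mitochondrial enzymes, though the call of ARG8 was not stable in the promoter strains. They were LEU4 (YNL104C) and LEU9 (YOR108W), the isopropylmalate synthases that open leucine synthesis, ILV1 (YER086W), threonine deaminase, ARG5,6 (YER069W), which yields both acetylglutamate kinase and the reductase after it, ARG8 (YOL140W), acetylornithine aminotransferase, and LYS4 (YDR234W), homoaconitase. Over all genes tested in every strain, 14.8% were called higher in all 3 and 0.0726% lower in all 3. No member among the 31 cytosolic or nuclear enzymes was called higher at the membrane in any strain.

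LEU9 had 166.0 and 157.9 RPM in the HEL2-FTP membrane inputs, against 36.0 and 38.4 RPM in the cytosolic inputs. ILV1 had 226.9 and 210.9 RPM at the membrane, against 53.2 and 56.7 RPM in the cytosol. ARG5,6 had 150.2 and 152.0 RPM at the membrane, against 39.7 and 43.1 RPM in the cytosol. In each of these genes both membrane libraries lay well above both cytosolic ones and the groups were far from overlapping. The log2 difference was 2.11 ± 0.05 (SE) for LEU9, 1.98 ± 0.05 for ILV1 and 1.86 ± 0.06 for ARG5,6, with limma adjusted p of 4.89e-12, 6.47e-12 and 3.36e-11 (Benjamini-Hochberg over all genes tested, as throughout). LEU4 had 668.6 and 687.9 RPM at the membrane, against 199.6 and 204.5 RPM in the cytosol (log2 difference 1.74). LYS4 and ARG8 showed smaller differences, 1.03 and 0.80.

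The same genes stood out in the promoter strains, where the values are counts. LEU9 had 86.0 and 94.1 CPM in the GIT1p membrane inputs, against 35.35 and 34.98 CPM in the GIT1p cytosolic inputs (log2 difference 1.47 ± 0.11, edgeR adjusted p = 5.39e-08). In the SRP72p strain it had 143.2 and 141.7 CPM at the membrane, against 49.9 and 44.9 CPM in the cytosol (1.58 ± 0.12, edgeR adjusted p = 6.30e-08). LEU4 gave 1.24 and 1.35 in the GIT1p and SRP72p strains, ILV1 1.07 and 1.26, and ARG5,6 1.23 and 1.20. The smallest were ARG8, at 0.60 and 0.57, and LYS4, at 0.53 and 0.71. Counts and RPM were normalised separately, so sizes are not compared between those strains and HEL2-FTP.

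The other 6 mitochondrial members were not higher throughout. ILV2, acetolactate synthase, was called higher in HEL2-FTP alone, by 0.19 (limma adjusted p = 0.011), with 984.7 and 915.3 RPM at the membrane against 828.1 and 836.1 RPM in the cytosol, and that call was lost when each library was centred on its median. ILV6, its regulatory subunit, was lower at the membrane by a log2 difference of -0.21 in HEL2-FTP, with 409.3 and 402.6 RPM against 472.7 and 468.2 RPM. ILV5 and BAT1 were also called lower in HEL2-FTP, while ILV3 and LYS12 were not called in any strain. So among enzymes of the same compartment the log2 difference ran over a range from -0.21 to 2.11.

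**Figure D1:**
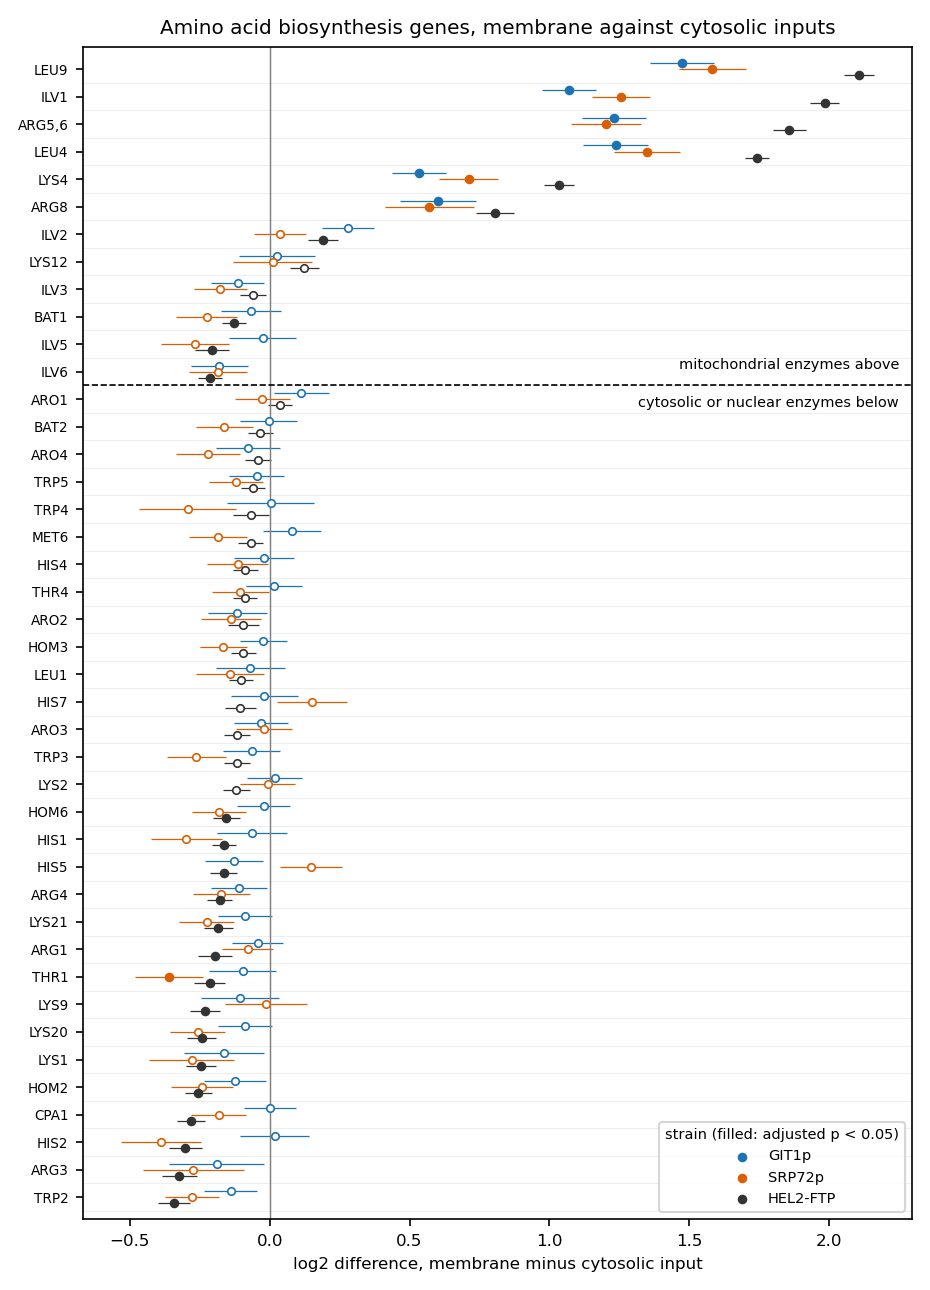
Log2 difference between membrane and cytosolic inputs for the members in 3 strains; points are fitted differences, bars are standard errors, and filled points passed an adjusted p of 0.05. LEU9, ILV1, ARG5,6, LEU4, LYS4 and ARG8 lie to the right of 0 in every strain, while the cytosolic and nuclear enzymes lie near or below 0.

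In HEL2-FTP, 7 members were called higher and 19 lower at the membrane, where 21.2% of all genes tested were higher and 33% lower (54.2% together). The median over the members was -0.12 on the log2 scale, against -0.13 over all genes tested. Among the lower calls were TRP2, anthranilate synthase, with 232.2 and 225.9 RPM at the membrane against 306.6 and 275.0 RPM in the cytosol (-0.34 ± 0.06), ARG3 (-0.32) and HIS2 (-0.30). The groups did not overlap for TRP2, but the gap was small beside those of the mitochondrial genes. With libraries centred on their medians the split was 6 higher and 36 lower, with medians of -0.40 over members and -0.41 over all genes.

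In the GIT1p strain, 6 members were called higher and 0 lower (16.5% and 0.21% of all genes, 16.7% together). At an unadjusted p below 0.05, edgeR gave 7 members in all, and DESeq2 called 5 higher and 2 lower. In the SRP72p strain the edgeR fit called 6 higher and 1 lower, THR1, homoserine kinase (15.9% and 4.92% of all genes, 20.8% together). That strain's lower calls rest on its scaling and on single libraries. DESeq2's size factors gave 5 higher and 24 lower. Leaving out membrane input replicate 1 gave 6 higher and 0 lower, and leaving out membrane input replicate 2 gave 5 and 13. Without cytosolic input replicate 1 or 2 the counts were 5 and 29, or 5 and 26. LEU4, LEU9, ILV1, ARG5,6 and LYS4 kept their higher calls in each of those fits and in the other scalings. ARG8 did not: in SRP72p its call was kept in 1 of 3 other settings (2 scalings and DESeq2) and in 1 of the 4 fits that each left out a library, and in GIT1p in 2 of 3 and 3 of 4.

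Binding by Hel2 was read from the IP set against its input. In the cytosol of HEL2-FTP, 16 members were higher in the IP and 26 lower (53.6% and 35.6% of all genes tested, 89.2% together). In the membrane fraction 14 were higher and 27 lower (45.4% and 43%, 88.4% together). The members' median log2 difference was -0.32 in the cytosol and -0.42 at the membrane, against 0.34 and 0.02 over all genes. For the GIT1p cytosol the split was 9 higher and 25 lower (36.3% and 33.2%, 69.5% together). At the GIT1p membrane 11 were higher and 21 lower (25.2% and 37.2%, 62.4% together). For the SRP72p cytosol it was 10 higher and 21 lower (37.7% and 31%, 68.7% together). At the SRP72p membrane 13 were higher and 22 lower (27.1% and 33%, 60.1% together).

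These splits moved with scaling. Centring gave 10 higher and 30 lower for the HEL2-FTP cytosol, and 7 and 30 for its membrane fraction. Library size alone gave 4 and 33 for the GIT1p cytosol, and 5 and 29 for its membrane fraction, where DESeq2's size factors gave 16 and 16.

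ARO1 (YDR127W) was the most enriched member in 4 of the 6 comparisons of IP and input. It encodes the pentafunctional enzyme of the shikimate pathway and, at 1588 amino acids, is the longest member. It had 1036 and 1049 RPM in the HEL2-FTP cytosolic IPs, against 440.3 and 429.4 RPM in the inputs. At the GIT1p membrane it had 1364 and 1532 CPM in the IPs, against 450.1 and 474.8 CPM in the inputs. In both settings every IP library lay at more than 2 times every input library. The log2 differences were 1.26 ± 0.04 (limma adjusted p = 4.08e-11) and 2.08 ± 0.10 (edgeR adjusted p = 8.00e-10). Log2 differences of counts include library scaling factors that the CPM do not. These were 0.795 and 0.817 in the GIT1p membrane IPs and 1.092 and 1.094 in the inputs. That gap shifts the log2 differences there upward from what the CPM give.

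HIS4 (YCL030C) encodes a trifunctional histidine enzyme. It had 1391 and 1551 CPM in the GIT1p membrane IPs, against 666.7 and 647.6 CPM in the inputs (log2 difference 1.60). In the SRP72p membrane fraction it had 997.3 and 991.6 CPM in the IPs, against 546.6 and 552.3 CPM in the inputs (1.01). In HEL2-FTP it had 859.1 and 897.7 RPM in the membrane IPs, against 784.1 and 801.3 RPM in the inputs (0.15), a difference that changed sign on centring. The groups did not overlap in any strain.

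CPA1 (YOR303W) serves arginine synthesis. It had 189.6 and 190.0 RPM in the HEL2-FTP cytosolic IPs, against 111.6 and 103.0 RPM in the inputs (log2 difference 0.82 ± 0.05). It was higher in the IP in all 6 comparisons, by 0.52 to 0.90. The leader of CPA1 holds a short reading frame for the arginine attenuator peptide, a known site of ribosome stalling in yeast; footprints in the leader were not analysed here.

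In all 3 strains 9 members were called higher in the cytosolic IP, among them HIS4, LEU4, LEU9, ILV1, ARG5,6, CPA1, LYS4 and ARO1 (29.3% of all genes were). At the membrane 9 were, with ILV6 and THR1 in place of LEU9 and ARG5,6 (19.8% of all genes). ARG5,6 and ARO1 in the cytosol, and ARO1 and CPA1 at the membrane, kept the call in all 3 strains under every scaling tried and with any single library left out. Those of HIS4 in both HEL2-FTP fractions, LEU4 in the HEL2-FTP membrane fraction and LEU9 in the GIT1p cytosol were among those that changed sign under another scaling.

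Of the other members, 17 were lower in the cytosolic IP in all 3 strains (22.6% of all genes were) and 19 at the membrane (25.1%). ARO4 (YBR249C), a DAHP synthase of the first shikimate step, had 278.4 and 267.2 RPM in the HEL2-FTP membrane IPs, against 803.3 and 787.8 RPM in the inputs. Both IP values lay far below both input values (log2 difference -1.54 ± 0.05, limma adjusted p = 2.23e-11). TRP2 was low in both promoter strains, with 126.8 and 118.2 CPM in the GIT1p cytosolic IPs against 316.4 and 298.9 CPM in the inputs (-0.97 ± 0.10, edgeR adjusted p = 6.05e-07), and -1.08 in the SRP72p cytosol. BAT1 and LYS12 were also among the 3 largest falls in the GIT1p cytosol, BAT1 and LYS9 in the SRP72p cytosol, and ARG3 and ARG8 in both HEL2-FTP fractions.

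By pathway, the tryptophan genes and the branched-chain transaminases had no member called higher in any of the 6 comparisons of IP and input. All 4 tryptophan genes were lower in both HEL2-FTP fractions, with a median log2 difference of -0.39 in the cytosol and -0.46 at the membrane (35.6% and 43% of all genes were lower). In the aspartate family, THR4, threonine synthase, was between -0.63 and -1.01 in all 6. In the histidine pathway HIS5 fell in each comparison, by 0.70 to 1.05 in size, while HIS4 rose in each. On centring the HEL2-FTP differences of HIS4 changed sign in both fractions. HIS7 was called lower in HEL2-FTP, at -0.87 and -0.92, and lay between -0.17 and 0.21 in the promoter strains. In the isoleucine and valine pathway 4 of 5 were higher in both HEL2-FTP fractions (53.6% of all genes in the cytosol and 45.4% at the membrane). The medians of the pathway there were 0.65 in the cytosol and 0.52 at the membrane. In the cytosol of each promoter strain 1 of 5 was higher (36.3% of all genes in GIT1p and 37.7% in SRP72p). At the membrane 2 of 5 were higher in GIT1p and 3 of 5 in SRP72p (25.2% and 27.1% of all genes). These counts were not tested between HEL2-FTP and the promoter strains. The HEL2-FTP calls of ILV2 were lost on centring in both fractions. The 7 lysine genes split, with LYS4 higher in all 6 comparisons and LYS1, LYS9, LYS20 and LYS21 lower in all 6. The higher call of LYS4 was lost under another scaling in the HEL2-FTP membrane fraction and in both GIT1p fractions. Of the lower ones, only LYS9 kept its call in all 6 under every scaling and with any single library left out.

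Some members were called in opposite directions in different strains. In the cytosol these were HIS2, ILV3, ARG1, LYS12 and THR1, and at the membrane ILV2, ARG1 and ARG5,6. Only the opposite calls of ILV3 in the cytosol (HEL2-FTP higher, GIT1p lower) and ARG1 at the membrane were kept on both sides under every scaling and with any single library left out. On centring, the HEL2-FTP differences of HIS2, LYS12 and THR1 in the cytosol changed sign, and the HEL2-FTP call of ILV2 at the membrane was lost. The HEL2-FTP call of ARG5,6 at the membrane was lost whichever of its 4 libraries was left out. The opposite call of ARG1 in the SRP72p cytosol was kept in 1 of the 4 fits that each left out a library. ARG1 (YOL058W), argininosuccinate synthase, had 202.3 and 192.7 RPM in the HEL2-FTP membrane IPs, against 368.4 and 355.4 RPM in the inputs (-0.87). At the GIT1p membrane it had 774.3 and 800.7 CPM in the IPs, against 560.5 and 551.8 CPM in the inputs (0.94), and the SRP72p strain gave 0.57. The GIT1p difference includes the library scaling and lies above what its CPM alone give. The HEL2-FTP libraries come from files of another kind, so no test between them and the promoter strains was made.

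Longer members tended to have the higher IP values. Length and the log2 difference had a Spearman correlation of 0.361 to 0.539 over the members in the 6 comparisons. Over all genes with a length it was 0.479 to 0.653. The level per kb in the HEL2-FTP cytosolic inputs went the other way. Its correlation with the log2 difference was -0.469 to -0.216 over the members and -0.639 to -0.426 over all genes. In the HEL2-FTP cytosol the level and the log2 difference share the same input libraries. Whether length or level itself plays a part was not tested. Among members at or below the median length of the set, CPA1, at 411 amino acids, was higher in the IP in all 6 comparisons. ILV6, at 309, and THR1, at 357, were higher in 4 of 6. HIS4 and LEU1, of 799 and 779 amino acids, lay on opposite sides of 0 in all 6 comparisons.

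**Figure D2:**
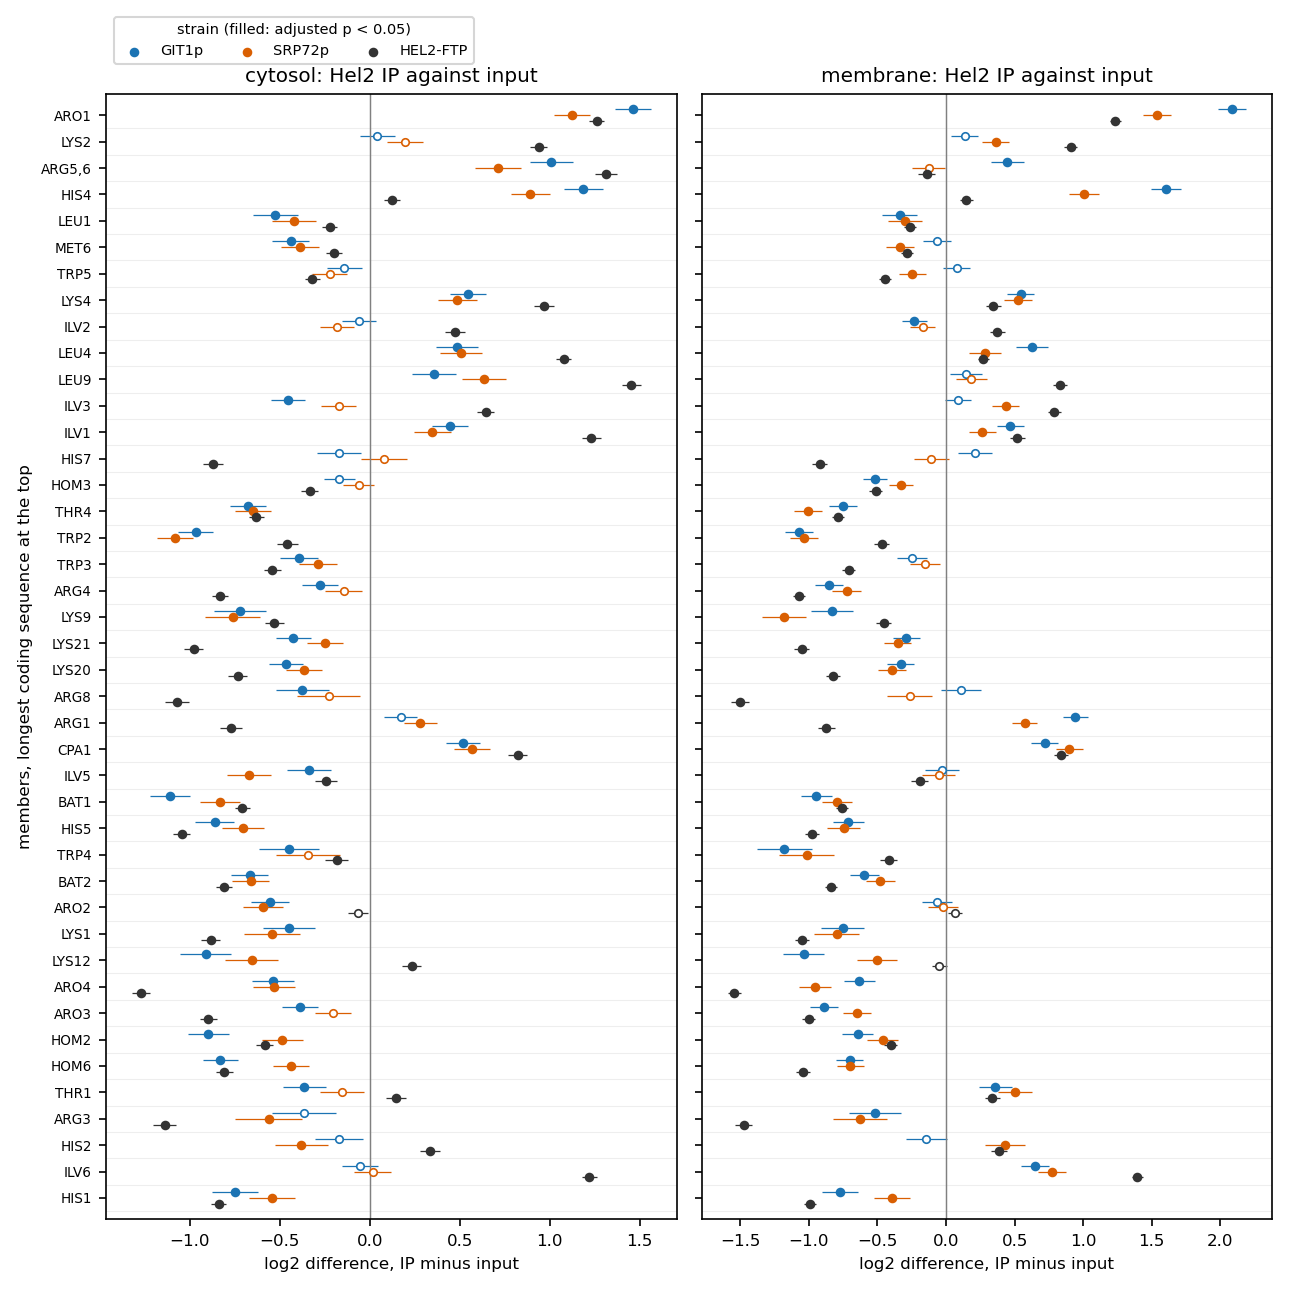
Log2 difference between Hel2 IP and input in the cytosol (left) and at the membrane (right) for the members in 3 strains, ordered by protein length with the longest at the top and a scale of its own on each x axis; bars are standard errors and filled points passed an adjusted p of 0.05. ARO1 at the top lies between 1.12 and 2.08 in all 6 comparisons, and most of the shorter members lie to the left of 0.

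Whether Hel2 enrichment differed between fractions was tested in HEL2-FTP as an interaction. Of the members 1, ILV6, was called higher at the membrane and 11 lower (3.31% and 25.9% of all genes, 29.2% together). The median was -0.09 over members and -0.11 over all genes. ARG5,6 had the largest difference: 134.0 and 139.8 RPM in the membrane IPs against 150.2 and 152.0 RPM in the membrane inputs, but 99.3 and 107.6 RPM in the cytosolic IPs against 39.7 and 43.1 RPM in the cytosolic inputs. It was thus below its input in one fraction and well above it in the other, an interaction of -1.45 ± 0.08 (limma adjusted p = 1.498e-07). The values were -0.80 for LEU4, -0.71 for ILV1, -0.62 for LEU9, -0.62 for LYS4 and -0.43 for ARG8. These 6 are the members raised in the membrane inputs, and since both contrasts use the same input libraries the values stand side by side only. Centring turned the split into 8 higher and 6 lower, and the 6 kept their lower calls under it and with any single library left out. Membrane markers were high in the HEL2-FTP cytosolic IPs too, with a median log2 difference of 1.05 against -0.14 in the membrane fraction. In the GIT1p strain they summed to 13070 and 11390 CPM in the cytosolic IPs, against 3146 and 3199 CPM in the inputs. The SRP72p strain gave 6094 and 6557 CPM against 2101 and 1921 CPM. The part this plays in the mitochondrial genes, in any strain, was not tested.

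The HEL2-FTP files give RPM at each codon, so the place of footprints along a message could be compared. An early window, codons 6 to 60, was divided by a late window that starts at codon 61 and stops short of the last 5 codons, and this ratio was compared between IP and input. It was higher in the IP for 24 members in the cytosol and lower for 0 (35.5% and 4.82% of all genes, 40.3% together). At the membrane it was higher for 27 and lower for 0 (38.5% and 3.42%, 41.9% together). At an unadjusted p below 0.05 limma gave 27 and 32 members. The members' median was 0.47 and 0.60 on the log2 scale, against 0.35 and 0.40 over all genes. Leaving out either cytosolic IP library left 15 members called.

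LYS2 (YBR115C), aminoadipate reductase and a protein of 1392 amino acids, had the largest difference. Codons 6 to 60 held 12.8 and 15.7% of its windowed footprints in the cytosolic IPs, against 3.96 and 5.10% in the inputs, where an even spread would give 3.98%. The membrane libraries gave 14.8 and 13.6% in the IPs against 5.42 and 3.70% in the inputs. The log2 differences in the ratio were 1.81 ± 0.24 and 1.81 ± 0.24 (limma adjusted p = 0.0013 and 0.0011). The codon by which the cumulative RPM passed its midpoint was 365 and 319 in the cytosolic IPs, against 706 and 708 in the inputs.

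HOM3 (YER052C), aspartate kinase, had 25.8 and 22.9% of its windowed footprints early in the membrane IPs, against 10.1 and 9.29% in the inputs (log2 difference 1.58 ± 0.14). ARG5,6 had 17.6 and 22.3% early in the cytosolic IPs, against 8.49 and 7.58% in the inputs (1.496 ± 0.174). ILV2 had 22.6 and 27.3% in the cytosolic IPs, against 9.39 and 12.2% in the inputs (1.46 ± 0.19). In all of these every IP library lay above every input library. LYS9, saccharopine dehydrogenase, was among those not called, with 7.34 and 7.96% in the cytosolic IPs against 8.56 and 8.36% in the inputs, and log2 differences of -0.16 ± 0.14 and -0.06 ± 0.14. ARO1, whose total RPM was also higher in the IP, had 7.76 and 6.88% early in the cytosolic IPs, against 4.59 and 3.96% in the inputs.

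**Figure D3:**
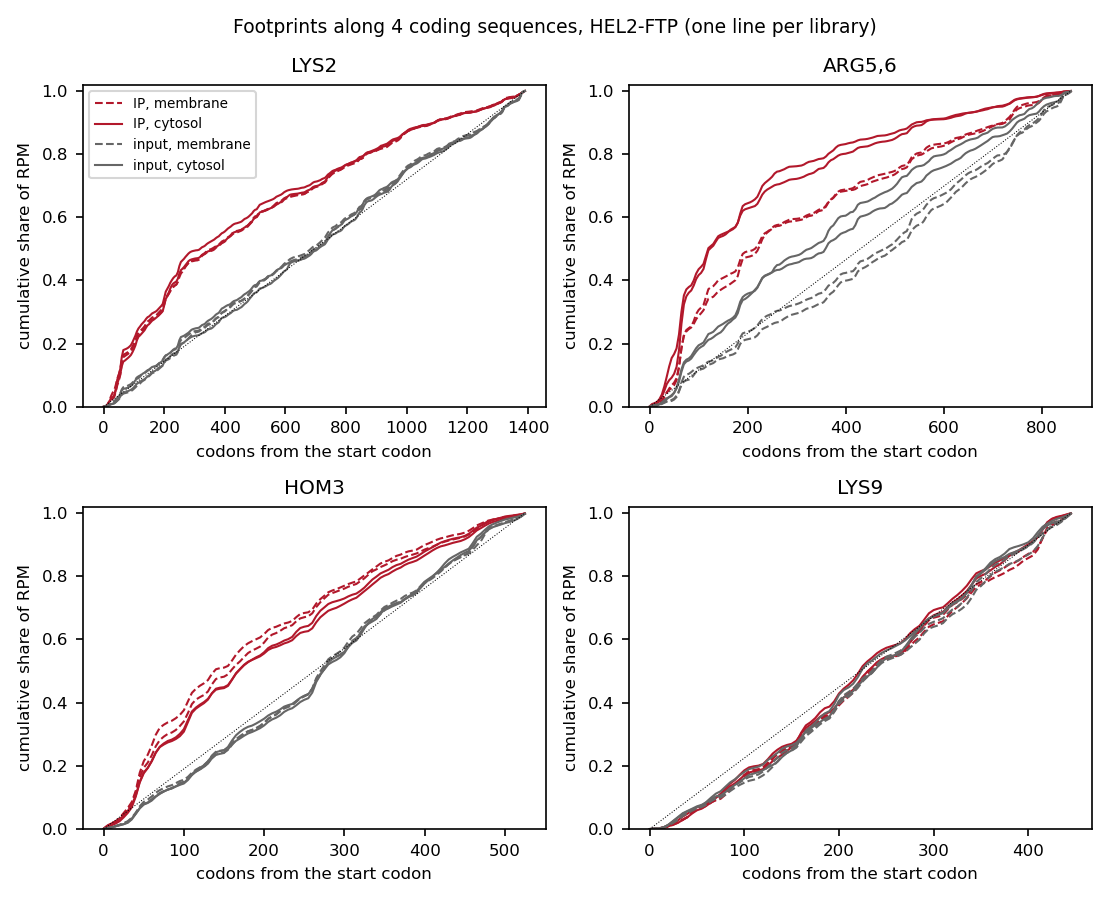
Cumulative share of RPM along the coding sequences of LYS2, ARG5,6, HOM3 and LYS9 in the 8 HEL2-FTP libraries, 1 line per library, with codons from the start codon on the x axis; the dotted line is an even spread. IP lines rise earlier than input lines in LYS2, ARG5,6 and HOM3, and all lines of LYS9 run close together.

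Single codons held small shares of each message. The highest in the cytosolic IPs was codon 65 of ARG5,6, with a mean of 1.66% of its RPM, against 0.671% in the inputs and 0.116% under an even spread. Codon 54 of HIS1, ATP phosphoribosyltransferase, held 1.37 and 1.42% in the cytosolic IPs against 0.915 and 1.00% in the inputs. It also led at the membrane, with 1.42 and 1.29% in the IPs against 1.06 and 0.893% in the inputs. The next in the cytosol were codon 89 of HIS7, codon 67 of CPA1 and codon 175 of HIS2, with means of 1.08, 1.06 and 1.04%. At the membrane they were codon 63 of ARG5,6, codon 26 of ILV5, codon 339 of HOM6 and codon 90 of HIS7. For HIS2 the input was higher at that codon, at 1.44 and 1.30%. These codons were picked as the highest in the IPs, so the values are a description.

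The inputs of the promoter strains differed for part of the pathway. In the cytosol 12 members were higher and 9 lower in the GIT1p libraries than in the SRP72p libraries (13.4% and 12.4% of all genes, 25.8% together). In the membrane fraction 13 were higher and 5 lower (12% and 6.3%, 18.3% together). The lower ones were mostly of leucine, isoleucine and valine synthesis, and the higher ones mostly of arginine and lysine synthesis. All 3 leucine members were lower at the membrane and 2 of 3 in the cytosol, while 5 of 7 lysine members were higher in the cytosol and 4 of 7 at the membrane. Of the 7 arginine members 4 and 5 were higher.

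LEU1 (YGL009C), isopropylmalate isomerase, moved most. It averaged 204.9 ± 6.90 CPM in the GIT1p cytosolic inputs and 716.9 ± 33.3 CPM in the SRP72p cytosolic inputs (SD, n = 2 each). At the membrane it had 177.9 and 181.2 CPM in the GIT1p inputs, against 567.5 and 743.2 CPM in the SRP72p inputs. Every GIT1p library stood far below every SRP72p library. The log2 differences were -2.00 ± 0.13 and -1.93 ± 0.13 (edgeR adjusted p = 2.36e-07 and 2.34e-07). HEL2-FTP, whose LEU2 level was 29.0 to 34.3 RPM, had 862.1 to 945.3 RPM of LEU1 in its inputs. These RPM were normalised apart from the CPM, so their sizes are not compared. LEU2, which acts on the product of LEU1, was itself higher in the GIT1p libraries by 4.74 and 4.32; whether the marker and LEU1 are linked was not tested.

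BAT1 had 443.3 and 433.5 CPM in the GIT1p cytosolic inputs, against 749.3 and 729.4 CPM in the SRP72p inputs (log2 difference -0.94 ± 0.11). ILV2 had 610.5 and 629.8 CPM in the GIT1p cytosolic inputs, against 789.9 and 864.0 CPM in the SRP72p inputs (-0.61 ± 0.09). LEU9 had 86.0 and 94.1 CPM in the GIT1p membrane inputs, against 143.2 and 141.7 CPM in the SRP72p inputs (-0.72 ± 0.11). In none of these did the groups overlap. ILV1, ILV5 and ILV6, of the same pathway, were not called, with log2 differences between -0.18 and 0.24.

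ARG1 was the largest rise. It had 620.6 and 625.1 CPM in the GIT1p cytosolic inputs, against 259.4 and 263.5 CPM in the SRP72p inputs, and 560.5 and 551.8 CPM against 233.0 and 265.8 CPM at the membrane. The groups were widely apart, with log2 differences of 1.06 ± 0.09 and 1.10 ± 0.09 (edgeR adjusted p = 2.16e-06 and 1.71e-06). HIS5, histidinol phosphate aminotransferase, was higher by 0.56 in the cytosol, with 159.8 and 147.6 CPM against 91.4 and 91.8 CPM. LYS21, a homocitrate synthase, had 494.7 and 463.2 CPM in the GIT1p membrane inputs, against 265.6 and 314.4 CPM in the SRP72p inputs (0.67 ± 0.10).

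**Figure D4:**
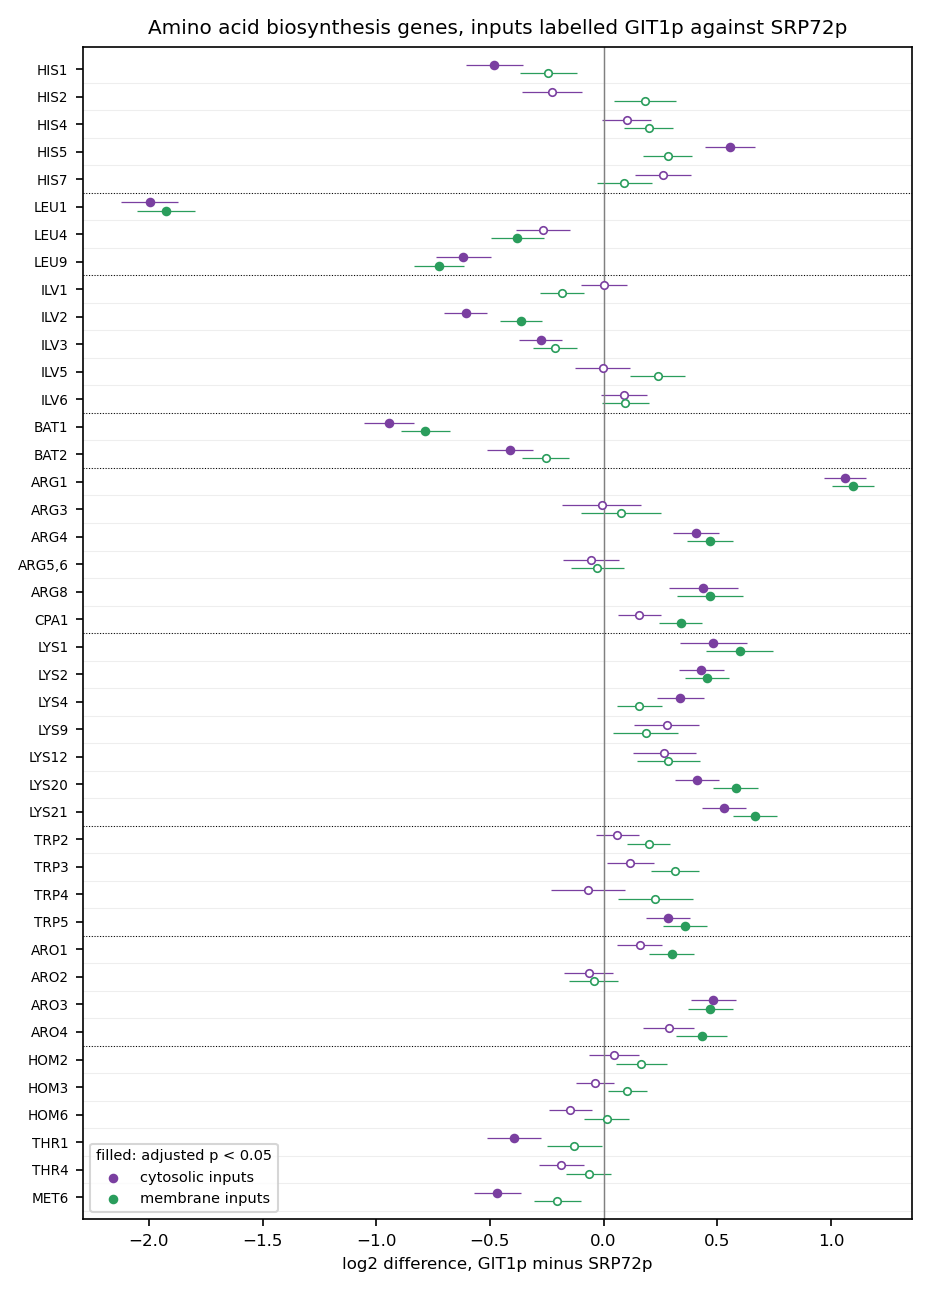
Log2 difference between GIT1p and SRP72p inputs for the members, ordered by pathway with dotted lines between pathways; bars are standard errors and filled points passed an adjusted p of 0.05. LEU1 lies near -2 in both fractions and ARG1 near 1, with the lysine members to the right of 0.

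The split of calls depended on scaling. In the cytosol DESeq2's size factors gave 7 higher and 12 lower, and library size alone gave 18 and 4. At the membrane they gave 8 and 9, and 14 and 3. The median over all genes was 0.01 and 0.05 in the main fit, -0.13 and -0.07 with DESeq2's size factors, and 0.20 and 0.11 with library size alone. Leaving out GIT1p cytosolic input replicate 1 left 11 members called, and leaving out GIT1p replicate 2 or SRP72p replicate 1 left 13. Leaving out GIT1p membrane input replicate 1 or 2 left 9 or 10. ARG1, ARO3, HIS5 and LYS21 (higher) and BAT1, ILV2, LEU1 and LEU9 (lower) kept their calls in the cytosol under all of these. At the membrane ARG1, ARO3, LYS20, LYS21, BAT1, LEU1 and LEU9 did.

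**Figure D5:**
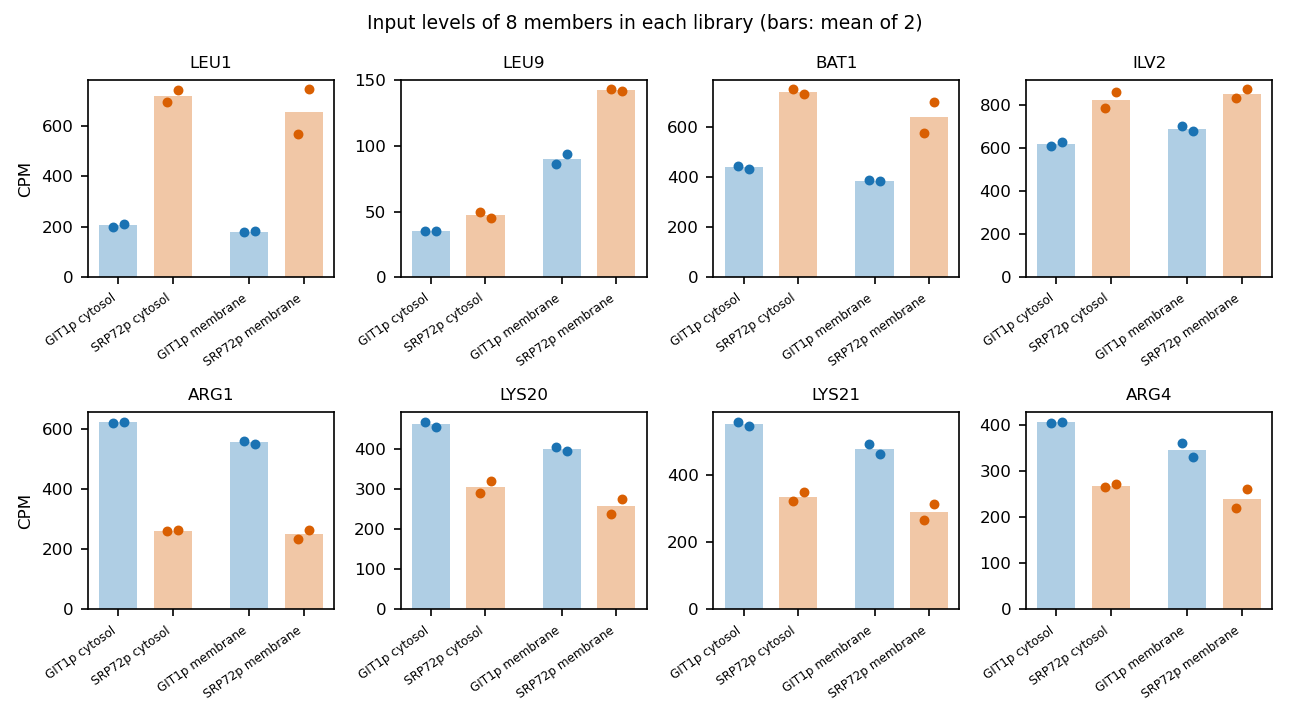
CPM of 8 members in each input library of the GIT1p and SRP72p strains; points are libraries and bars their means. LEU1, LEU9, BAT1 and ILV2 are lower in the GIT1p libraries, and ARG1, LYS20, LYS21 and ARG4 higher, in both fractions.

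Of 34 other biosynthesis genes, 12 were higher and 3 lower in the GIT1p cytosolic inputs, and 11 were higher and 1 lower at the membrane (13.4% and 12.4% of all genes, then 12% and 6.3%). The scaling that moved the split of the members applies to these genes as well, and their counts were not recomputed under it. GDH3, a glutamate dehydrogenase, was higher by 1.62 and MET2, homoserine acetyltransferase, by 1.37 in the cytosol. MET3 and GDH3 were higher at the membrane, by 1.26 and 1.19, and the lower gene there was ARO9, an aromatic aminotransferase, at -0.91. GCN4 had 495.8 and 493.8 CPM in the GIT1p cytosolic inputs, against 302.4 and 254.9 CPM in the SRP72p inputs (0.64 ± 0.10, edgeR adjusted p = 0.000365). Other regulators on the list went different ways. LYS14 was called lower, by -0.89 in the cytosol and -0.56 at the membrane, and BAS1 higher in the cytosol alone, by 0.70. LEU3 was not called, at 0.34 and 0.07, and neither were the rest.

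Hel2 enrichment of the members was not called different between the promoter strains. The interaction gave 0 members in the cytosol and 0 at the membrane with edgeR (8.37% of all genes higher and 2.71% lower, 11.1% together, then 1.07% and 1.38%, 2.45% together). At an unadjusted p below 0.05 edgeR gave 3 and 9 members, and DESeq2 called 3 and 6 after adjustment. Among the largest were HIS4 and ARO1 at the membrane, at 0.59 ± 0.15 and 0.55 ± 0.14 (edgeR adjusted p = 0.059 and 0.058). A p that misses the threshold does not show equal enrichment, and with 2 libraries a group the standard errors were of this size.

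Several members come as pairs of duplicated genes, whose reads can be hard to tell apart; how the counting treated shared reads is not given in the sources used here. LEU4 and LEU9 moved together in fraction, both higher at the membrane, though LEU4 held 199.6 and 204.5 RPM against 36.0 and 38.4 RPM for LEU9 in the HEL2-FTP cytosolic inputs. In the GIT1p libraries LEU9 was lower in both fractions, whereas LEU4 was called lower only at the membrane (-0.38, edgeR adjusted p = 0.034). LYS20 and LYS21 were both lower in every IP, by 0.25 to 1.05 in size. BAT1, the mitochondrial transaminase, and BAT2, the cytosolic one, were both lower in every IP too. BAT1 was lower in the GIT1p libraries in both fractions, and BAT2 in the cytosol alone (-0.41, edgeR adjusted p = 0.0082). ARO3 and ARO4, DAHP synthases inhibited by phenylalanine and by tyrosine, were both higher in the GIT1p membrane inputs, by 0.47 and 0.43, with only ARO3 called in the cytosol.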

How the data were processed

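Ribosome footprints were sequenced from 24 libraries in 12 groups of 2, and nothing in the labels says whether replicates came from separate cultures, so p-values measure the spread between these samples, which may be technical. The submitters' processing notes name the yeast genome build sacCer3 and the tools CASAVA 1.8, UMI-tools, Bowtie2 and TopHat without saying which step each served. The HEL2-FTP files hold RPM at each codon, computed by the authors, per the file headers. The same files hold a ratio of each codon's RPM to a value of its transcript, computed by the authors, per the file headers, which was not used. The SRP72p and GIT1p files hold raw read counts per gene as deposited by the authors. They also hold RPKM values computed by the authors, per the file headers, which were not used.

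For HEL2-FTP, RPM were summed over each coding sequence and log2(RPM + 0.5) was fitted with limma 3.58.1 for the 5532 genes averaging 1 RPM or more, so fold changes are on that scale and come out too small for low genes. The count files were fitted with edgeR 4.0.16 (TMM scaling, quasi-likelihood test) for 5714 genes, all 16 libraries in one fit. DESeq2 1.42.0 was an alternative. The early to late ratio used 4997 genes with at least 20 estimated footprints in each window and a pseudocount of 0.5. Calls are at a Benjamini-Hochberg adjusted p of 0.05 over all genes tested. All 43 members passed the filters of all fits. CPM in the text are counts over the library total, without the TMM factors that the log2 differences include. The fits were tested on simulated data in R 4.3.3.

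Members and lists were chosen with earlier results of these data known. Values in every library are given for up to 3 members with the largest rise and fall per comparison, for duplicated pairs and for CPA1. LYS9 in the position results, ILV2 and ILV6 in the membrane results and ARG1 in the IP results were named after their values were seen. HEL2-FTP depth is an estimate, since 71.5 to 78.9% of summed values came out as whole reads. Symbols came from the RefSeq gene table. Replicate numbers are not stated to pair samples. Alternatives covered scaling, filters, pseudocounts, windows, a replicate block and leaving out each library. The values of 1 member are not reported here and it is not drawn in the figures, though counts and medians over the set include it.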

Additional observations from a re-analysis of the deposited data

Results flagged for a closer look

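The difference of Hel2 enrichment between the fractions of HEL2-FTP was tested for each member as an interaction, and 4 members are listed here because that test called them and they are the 3 largest falls and the 1 rise. ARG5,6 gave -1.45, LEU4 gave -0.80, ILV1 gave -0.71 and ILV6 gave 0.18 in log2 units (adjusted p from limma 1.498e-07, 1.18e-06, 1.42e-05 and 0.0435). ARG5,6 was below its input at the membrane in both replicates and above it in the cytosol in both. ILV6 lost its call when a library was left out.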

How the results depend on the processing

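For the 198 results named by gene, 1943 alternatives were run. Of these 1803 kept the side of the threshold, 80 lost the call and 58 gained one. A result called in neither fit counted as kept, whatever its sign. A further 2 turned sign with a call in either fit. These were LEU4 in the HEL2-FTP membrane IP, at -0.017 with centring, and LEU9 in the GIT1p cytosolic IP, at -0.003 with library size only. Over all members more turned sign, counted where either fit made a call. Centring turned 5 in the HEL2-FTP cytosolic IP, 4 in its membrane IP and 3 between its input fractions. Library size only turned 2 in the GIT1p cytosolic IP and 4 in its membrane IP. Leaving out either SRP72p cytosolic input library also turned a sign between the input fractions of that strain. Counts of called members moved as follows, and the cause was not tested. With each library centred, HEL2-FTP membrane against cytosol had 42 members called, against 26, and the interaction 14, with 24 under a replicate block, against 12. SRP72p membrane against cytosol had 29 with DESeq2's size factors and 31 with DESeq2, against 7, and leaving out 1 library gave 6 to 34. Leaving out 1 library gave 11 to 18 in the cytosolic strain inputs, 9 to 18 in the membrane strain inputs and 15 to 21 in the cytosolic early to late ratio. The cytosolic interaction between strains had 9 with library size only, 3 with DESeq2 and 4 with no filter, against 0. The membrane one had 3 with DESeq2's size factors, 8 with library size only and 6 with DESeq2, and 0 to 3 with 1 library left out; the 1 and 3 came without SRP72p membrane input replicate 1 and 2.

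Same-numbered samples correlated in their deviations at -0.429 to 0.421 and are not stated to be pairs. With the replicate block, calls numbered 28, 42 and 41 in the HEL2-FTP contrasts of fraction, cytosolic IP and membrane IP, 18 in the cytosolic and 18 in the membrane strain inputs, 9 and 6 in the SRP72p and GIT1p fraction contrasts, and 24 and 26 in the early to late ratios. For the membrane strain inputs, with a correlation of -0.429, a crossed pairing chosen after seeing the data gave 19. Each group has 2 libraries, which limits the precision of all these values.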
